A study of Mus musculus with 16 samples.

Results

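Hspa5, Ero1a and Bcap31 encode proteins of the endoplasmic reticulum that serve folding, oxidation and export of newly made proteins. They were chosen by their measured values on the arrays of untransfected NIH3T3 cells, where Hspa5 and Ero1a lay among the lowest features and Bcap31 among the highest. Their probes are those whose single gene symbol is one of the 3 names, and each gene has 1 probe, so 3 genes are described among 20355 probes and 12420 features that could be compared. All 3 passed the filter on missing values. Because those values chose the genes, the values of untransfected cells are given for them as a description with no test, and so are the differences between the lines.

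The study measured RNA of NIH3T3, an established mouse fibroblast line, on 16 2-colour cDNA arrays with azacytidine-treated and untreated cells of the same line in the 2 channels. Azacytidine resembles cytidine, enters RNA and DNA, and depletes the enzymes that methylate DNA. The groups were cells transfected with Erbb2, a receptor tyrosine kinase, treated at 5 µM (4 arrays), the same transfected cells treated at 10 µM (8 arrays), and untransfected NIH3T3 cells treated at 10 µM (4 arrays). The untreated cells of each array carried the same transgene state as the treated ones, so the level of Erbb2 in one line against the other cannot be read from these ratios. The labels give neither the promoter of the transgene, nor whether the line is 1 clone, nor the length of treatment, and they do not say that arrays came from separate cultures. P-values therefore measure the spread between arrays, which may be technical.

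A value is a log2 ratio of treated over untreated cells. The files do not state the direction of the ratios: they were read as Cy5 over Cy3, and the sign was turned wherever Cy3 marked the treated RNA, so every direction given here is the likely one. For the 4 untransfected arrays both channels carry the same dye label, which makes their direction less sure. An array gave between 16153 and 18507 ratios with an interquartile range of 0.706 to 1.36, and the 3 widest ranges belonged to arrays 3, 5 and 6 in the group of Erbb2 cells treated at 10 µM. Signal over background is unknown. In a culture, fewer cells that hold an RNA and less of it per cell cannot be told apart.

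Proteins that enter the endoplasmic reticulum are bound by Hspa5, also known as BiP or Grp78, an ATP-driven Hsp70 chaperone of its lumen. Disulfide bonds are made there by protein disulfide isomerases, which Ero1a re-oxidises while passing the electrons to oxygen. Bcap31 is a membrane protein that sorts other membrane proteins for export or degradation and takes part in death signals from the organelle. When unfolded proteins build up, Hspa5 leaves the sensors Ern1, Eif2ak3 and Atf6, and the factors they activate raise chaperone genes through the endoplasmic reticulum stress response element of their promoters. Hspa5 is the textbook target of this response, and Ero1a is known to be induced by Ddit3 and by hypoxia.

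The 3 genes lie apart in the mouse genome, in RefSeq coordinates of GRCm38.p6. Hspa5 (Entrez Gene 14828) spans chr2:34772090-34776529, Ero1a (50527) spans chr14:45283087-45318572 and Bcap31 (27061) spans chrX:73686178-73717815. The positions of the cDNA probes within the transcripts are not in the files. The 250 bases before the annotated start are shown for Hspa5 and Ero1a, because both lay among the lowest features in untransfected cells. The Hspa5 window is chr2:34771840-34772089 on the plus strand, and the Ero1a window is chr14:45318573-45318822 on the minus strand. Capitals mark the core letters of hypoxia response elements, ACGTG on either strand, which both windows hold, and the longer stress response element, which is the second run of capitals in Hspa5.
Hspa5: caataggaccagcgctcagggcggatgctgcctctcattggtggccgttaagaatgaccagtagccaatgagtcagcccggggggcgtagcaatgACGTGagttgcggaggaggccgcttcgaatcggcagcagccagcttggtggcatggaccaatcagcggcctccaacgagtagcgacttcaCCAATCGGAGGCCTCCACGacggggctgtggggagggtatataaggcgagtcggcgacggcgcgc
Ero1a: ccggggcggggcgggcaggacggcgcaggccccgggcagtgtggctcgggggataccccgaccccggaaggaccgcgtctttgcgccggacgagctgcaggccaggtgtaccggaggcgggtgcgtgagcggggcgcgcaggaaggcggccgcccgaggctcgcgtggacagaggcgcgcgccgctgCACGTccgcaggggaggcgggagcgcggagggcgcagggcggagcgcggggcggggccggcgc

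Motifs were searched as letters on both strands of the same window in 27025 mouse promoters, 1 per gene. The stress response element, CCAAT and CCACG with any 9 bases between them, was in 33 promoters (0.122%), and Hspa5 held 1 match, 65 to 47 bases before its start. The Ero1a and Bcap31 windows held no match to these letters. The Bcap31 window, chrX:73716205-73716454 on the minus strand, lies inside the gene span given above, whereas those of Hspa5 and Ero1a adjoin their genes. Bases before the outer end of Bcap31 were therefore not searched. CCAAT alone, which is also the start of the element, was in 34.5% of promoters, with 4 matches in Hspa5 and 0 in Ero1a and Bcap31. The hypoxia core ACGTG, a short and common string found in 16.6% of promoters, had 1 match in Hspa5, 155 to 151 bases before its start, 1 in Ero1a, 63 to 59 bases before its start, and 0 in Bcap31. The composite site TGATGCAA (0.818% of promoters) and TATAAA (13.0%) were in none of the 3 windows. CpG dinucleotides, the sites of DNA methylation, numbered 22 in Hspa5, 41 in Ero1a and 22 in Bcap31, against a median of 6. That placed Ero1a at the 99.2 percentile of all promoters and the other 2 genes at the 87.0 percentile. Methylation was not measured on these arrays.

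**Figure D1:**
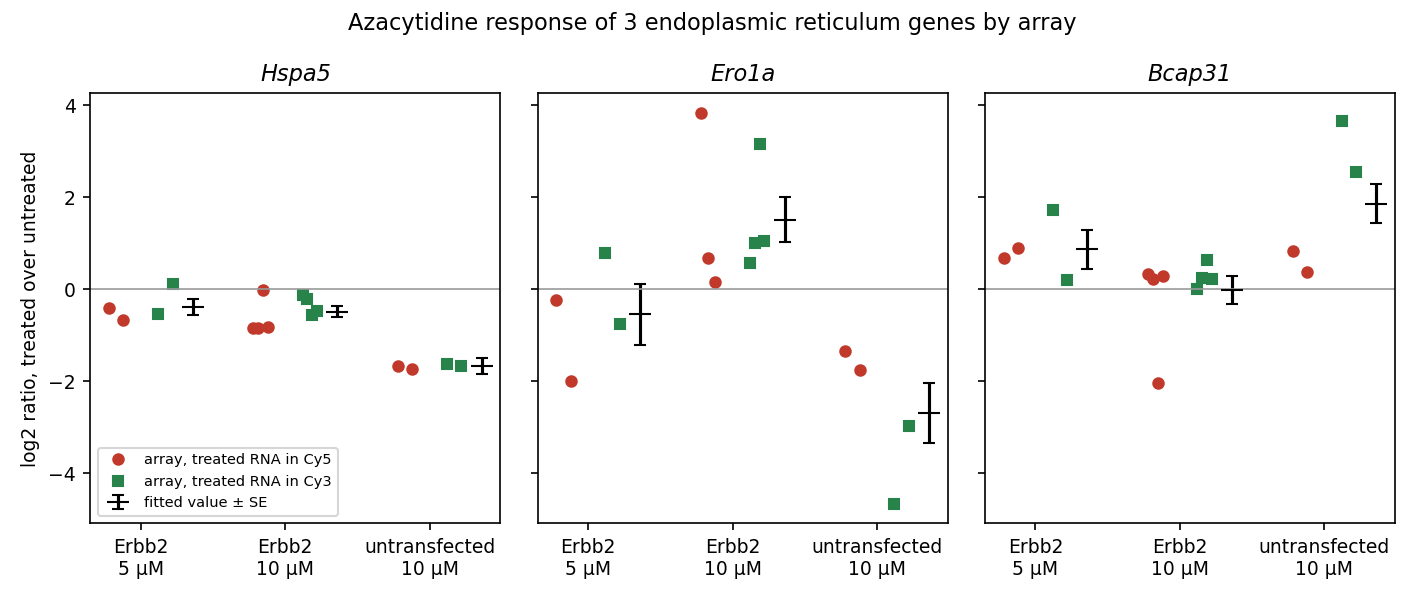
Log2 ratio of treated over untreated cells (vertical axis) for each gene on each array, with Erbb2-transfected cells at 5 and 10 µM azacytidine left of untransfected cells at 10 µM. Circles are arrays with treated RNA labelled Cy5, squares Cy3, and bars the fitted value ± SE. Hspa5 lay between -1.73 and -1.63 on all 4 untransfected arrays, Ero1a was above 0 on 7 of 7 Erbb2 arrays at 10 µM and below 0 on all 4 untransfected ones, and Bcap31 spread from 0.37 to 3.66 in untransfected cells.

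Hspa5 was lower in treated than in untreated cells on 15 of 16 arrays, among them the 4 untransfected arrays that chose the gene. Its ratios in Erbb2 cells at 5 µM were -0.42, -0.68, -0.54 and 0.10. At 10 µM they ran from -0.85 through a median of -0.52 to -0.013, below 0 on 8 of 8 arrays. In untransfected cells, whose arrays chose the gene, they were -1.67, -1.73, -1.63 and -1.67, below every array of the transfected cells. How many of all features separate in this way was not counted. The SD was 0.34 in both groups of transfected cells (n = 4 at 5 µM and n = 8 at 10 µM) and 0.04 in untransfected cells (mean -1.68, n = 4). Hspa5 stood between the 2.16 and 2.89 percentile of its array on the 4 untransfected arrays.

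In the fit the Hspa5 ratio was -0.38 ± 0.17 (SE) in Erbb2 cells at 5 µM (limma, adjusted p = 0.763), -0.49 ± 0.12 in Erbb2 cells at 10 µM (adjusted p = 0.0818) and -1.68 ± 0.17 in untransfected cells. Expressed as folds, treated cells had 1.30-fold, 1.40-fold and 3.19-fold less Hspa5 RNA. Neither group of transfected cells passed the threshold of an adjusted p of 0.05, which 0.209% of all features passed at 5 µM and 1.26% at 10 µM. The 95% interval at 10 µM was -0.75 to -0.22. Array 3, whose value was the nearest to 0 and which was among the 3 widest arrays, decided the call: without it the value was -0.58 with an adjusted p of 0.0278, and Hspa5 passed. Without the 3 widest arrays together it was -0.69 (adjusted p = 0.0441). The 5 and 10 µM values overlapped and differed by -0.11 ± 0.21 (10 minus 5 µM, interval -0.56 to 0.35, adjusted p = 0.998).

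Read in the likely direction, Ero1a had ratios of opposite sign in the 2 lines at the same dose. With the untransfected arrays turned the other way, both lines would lie above 0. In Erbb2 cells at 5 µM its ratios were -0.23, -1.998, 0.78 and -0.75, on both sides of 0. At 10 µM, where array 3 gave no value, they ran from 0.15 through a median of 1.001 to 3.83, above 0 on 7 of 7 arrays. In untransfected cells they were -1.35, -1.75, -4.66 and -2.98, below 0 on every array. The arrays of the 2 lines at 10 µM did not overlap, but the untransfected arrays chose the gene. How many of all features separate in this way was not counted. The arrays of Erbb2 cells at 5 µM overlapped with both other groups.

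The fitted ratio of Ero1a was -0.55 ± 0.65 in Erbb2 cells at 5 µM (adjusted p = 0.9999), 1.51 ± 0.50 in Erbb2 cells at 10 µM (adjusted p = 0.248) and -2.68 ± 0.65 in untransfected cells. At 10 µM this was 2.85-fold higher in treated Erbb2 cells, number 28 from the top of 12420 features, and 6.43-fold lower in treated untransfected cells, number 6 from the bottom. The large size in Erbb2 cells came with a large spread (SD 1.41, n = 7), and the gene did not pass, although the 95% interval of 0.44 to 2.58 lay above 0. Arrays 1 and 7, at 3.83 and 3.15, stood well above the other 5, whose values were 0.15 to 1.05. The difference between doses was 2.06 ± 0.82 (10 minus 5 µM, interval 0.29 to 3.83, unadjusted p = 0.0257 in limma), with an adjusted p of 0.998.

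Bcap31 was higher in treated cells on every array of 2 groups and near 0 in the third. The ratios of Erbb2 cells at 5 µM were 0.67, 0.89, 1.71 and 0.20. At 10 µM they ran from -2.04 through a median of 0.24 to 0.64, and 7 of 8 arrays lay between 0 and 0.64, array 3 being the exception. In untransfected cells they were 0.83, 0.37, 3.66 and 2.55. All 3 groups overlapped.

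The fitted ratio of Bcap31 was 0.87 ± 0.42 in Erbb2 cells at 5 µM (adjusted p = 0.823), -0.01 ± 0.30 in Erbb2 cells at 10 µM (adjusted p = 0.994) and 1.85 ± 0.42, or 3.61-fold higher, in untransfected cells. The interval at 10 µM, -0.65 to 0.63, leaves room for a change of either sign. The sign was not settled: without array 3 the value was 0.23 (adjusted p = 0.847), and without array 5, 6 or 8 it was 0.059, 0.021 or 0.025. Leaving out the 3 widest arrays together gave 0.43. The dose difference was -0.88 ± 0.52 (10 minus 5 µM, interval -1.99 to 0.22, adjusted p = 0.998).

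For the contrast of doses, no gene of the 3 passed, and neither did any of the 12420 features (0% called, with 538 at an unadjusted p under 0.05 in limma). The order of the groups, from lowest to highest ratio, was untransfected cells, Erbb2 cells at 10 µM and Erbb2 cells at 5 µM for Hspa5, the last 2 of which did not differ beyond their spread. For Ero1a it was untransfected cells, Erbb2 cells at 5 µM and Erbb2 cells at 10 µM, in which each neighbouring pair overlapped. For Bcap31 it was Erbb2 cells at 10 µM, Erbb2 cells at 5 µM and untransfected cells, again with overlap between neighbours.

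The Erbb2 minus untransfected difference at 10 µM is a description, since it holds the arrays on which the genes were chosen. It was 1.19 ± 0.21 for Hspa5, 4.20 ± 0.82 for Ero1a and -1.87 ± 0.52 for Bcap31. The Ero1a difference was the highest of the 12420 features, of which 0.813% passed the threshold in this contrast. The untransfected arrays are shared by this contrast and by the untransfected values above, so the 2 sets of numbers are not independent.

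The dye label moved with the size of 2 of these values. In untransfected cells Bcap31 averaged 0.60 on the arrays with treated RNA in Cy5 and 3.11 on those in Cy3, and Ero1a averaged -1.55 and -3.82, with 2 arrays of each dye. Hspa5 averaged -1.70 and -1.65 there, nearly the same. As deposited, before the sign was turned, all 3 genes had opposite signs on the 2 dye labels in untransfected cells. Read without turning, the untransfected values would be -0.03 for Hspa5, 1.13 for Ero1a and -1.25 for Bcap31. Turning those 4 arrays the other way would give 1.68, 2.68 and -1.85. The shared dye term of the fit passed for none of the 3 genes (limma, adjusted p = 0.728 for Hspa5, 0.893 for Ero1a and 0.608 for Bcap31), with an unadjusted p of 0.0383 for Bcap31.

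**Figure D2:**
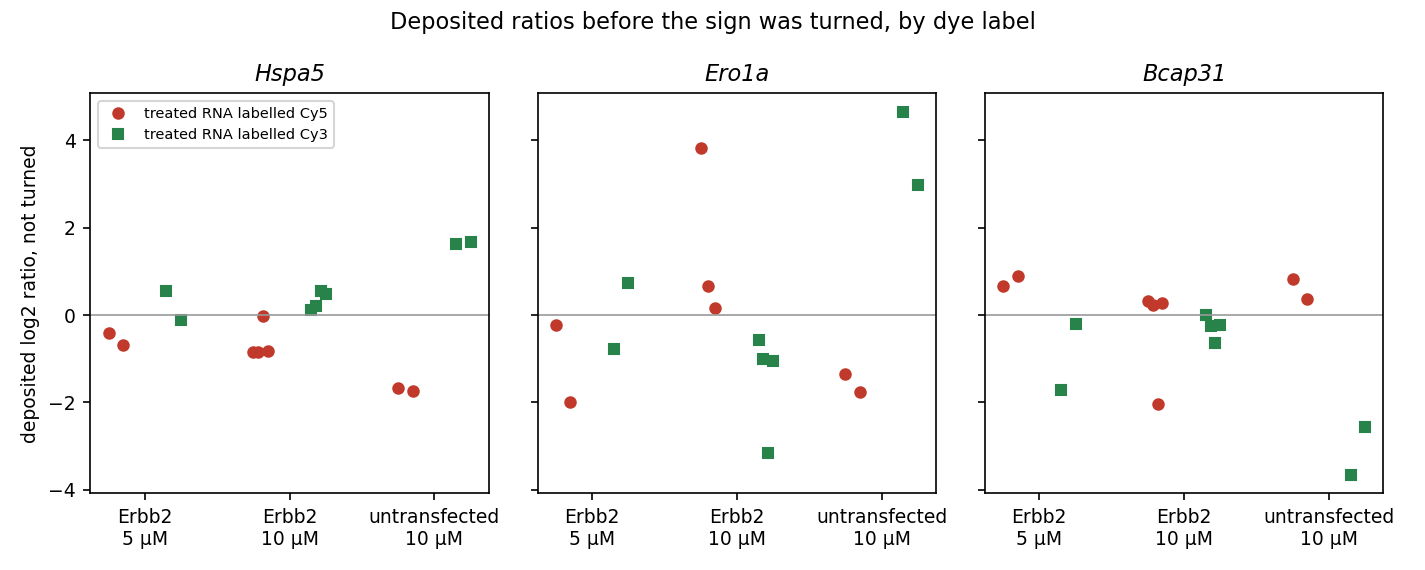
Deposited log2 ratios of the 3 genes before any sign was turned (vertical axis), by group, with circles for arrays whose treated RNA was labelled Cy5 and squares for Cy3. In untransfected cells Hspa5 was at -1.67 and -1.73 with Cy5 and at 1.63 and 1.67 with Cy3, and Ero1a and Bcap31 also changed sign with the label.

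The other genes, taken from 10 lists of roles in or linked to the endoplasmic reticulum, had 138 measured of 234 listed members, and few passed. The lists also hold Atf4, a transcription factor, and its known targets Chac1 and Trib3. These are 3 of the 7 lower genes of untransfected cells given below. In Erbb2 cells at 5 µM, 0 passed (limma, with 4 higher and 3 lower at an unadjusted p under 0.05), and at 10 µM 1 was lower and 0 higher, with 14 higher and 5 lower at an unadjusted p under 0.05. Ctsb, a lysosomal protease held by the collagen folding list, is counted in the 138 and among those 14 (0.65 ± 0.16). The 1 gene at 10 µM is 0.725% of the 138, near the 0.862% of all features that were lower there. In untransfected cells 7 were lower and 0 higher, with 3 higher and 19 lower at an unadjusted p under 0.05. That is 5.07% of the measured members lower, where 2.13% of all features were lower, 0.596% higher and 2.73% either. The lists were drawn up with earlier results of these data known, so the difference between these shares is a description only. The median of the 138 was 0.0017 in Erbb2 cells at 5 µM, with -0.02 over all features, and 0.0078 at 10 µM, with -0.0034 over all features. In untransfected cells it was -0.12, with 0.03 over all features, and 86 of the 138 lay below 0, as did 5825 of all 12420 features. The count of 7 rests on all 4 untransfected arrays: without array 1, 2, 3 or 4 it was 3, 2, 3 and 3 of 138. Of all features 1.79%, 1.71%, 2.09% and 1.88% passed in those fits in either direction, and the list stood near that share in each of them. The lower features alone numbered 167, 159, 190 and 179 of 12420, a smaller background. Atf4 and Hsp90b1 passed in all 4 of these reduced fits and Chac1 in 3, while Krtcap2, Serpinh1, Stt3a and Trib3 passed in none.

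Among the chaperones 1 of 13 fell in untransfected cells, where 2.13% of all features were lower. Hsp90b1, also known as Grp94, the Hsp90 of the lumen, had ratios of -0.39 to 0.15 in Erbb2 cells at 5 µM and of -0.999 to 0.39 with a median of -0.41 at 10 µM, against -1.19, -1.40, -0.89 and -1.60 in untransfected cells. Its fitted value in untransfected cells was -1.27 ± 0.22 (limma, adjusted p = 0.00422), a 2.41-fold lower level in treated cells. The lectin chaperones Calr and Canx were at -0.42 ± 0.13 and -0.56 ± 0.15 and did not pass (adjusted p = 0.131 and 0.0626).

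Among the sensors and factors of the unfolded protein response, 0 of 9 measured passed in Erbb2 cells at 5 µM. At 10 µM 1 of 9 fell, where 0.862% of all features were lower. In untransfected cells 3 of 9 fell, where 2.13% of all features were lower, and the median was -0.66. The sensors Ern1, Eif2ak3 and Atf6 were not among the 9, which include Chac1 and Trib3. Atf4, the transcription factor made when Eif2ak3 slows translation, was the single gene of these lists that passed in Erbb2 cells. At 5 µM it lay below 0 on 4 of 4 arrays, between -0.54 and -0.26, and did not pass. At 10 µM it lay below 0 on 8 of 8 arrays, from -0.60 through a median of -0.43 to -0.15, and its fitted value was -0.41 ± 0.09 (limma, adjusted p = 0.0467). That call was lost in 14 of 16 fits that left out 1 array. In untransfected cells its ratios were -0.75, -0.995, -0.93 and -0.86, and the fitted value was -0.89 ± 0.13 (adjusted p = 0.00156).

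Chac1 and Trib3, both known targets of Atf4, had medians of -0.10 each in Erbb2 cells at 10 µM, with Trib3 reaching -2.79 on array 3. In untransfected cells they fell, at -1.22 ± 0.23 (limma, adjusted p = 0.00672) and -1.84 ± 0.38 (adjusted p = 0.0149). Ddit3, the factor also called Chop, was at -1.53 ± 0.54 there and did not pass (adjusted p = 0.211).

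Of the genes for N-glycosylation, 2 of 18 fell in untransfected cells, where 2.13% of all features were lower. Stt3a, a catalytic subunit of the oligosaccharyltransferase, was at -0.94 ± 0.22 (limma, adjusted p = 0.0303). Krtcap2, another subunit of that complex, had ratios of -0.55 to 0.99 with a median of 0.22 in Erbb2 cells at 10 µM, against -0.996, -0.98, -1.17 and -0.79 in untransfected cells. Its fitted value in untransfected cells was -0.98 ± 0.20 (adjusted p = 0.0137), and the Erbb2 minus untransfected difference was 1.22 ± 0.25 (adjusted p = 0.0313). It was the single one of the 138 genes to pass in that contrast. That is 0.725% of them, near the 0.628% of all features that were higher there. The call of Krtcap2 was lost in 10 of 16 fits that left out 1 array, among them each fit without an untransfected array. Over the 16 the differences ran from 1.08 to 1.32 and the adjusted p from 0.0164 to 0.121.

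In the list of collagen folding genes 1 of 12 fell in untransfected cells, where 2.13% of all features were lower. The 12 include Ctsb, the lysosomal protease cathepsin B, which did not pass there (0.23 ± 0.22). Serpinh1, the collagen chaperone Hsp47, had ratios of -1.35, -1.29, -1.30 and -1.17 and a fitted value of -1.28 ± 0.29 (limma, adjusted p = 0.0248).

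In the roles closest to Ero1a and Bcap31 no other gene passed in untransfected cells in the fit of all features. Of 12 disulfide genes the smallest p-values belonged to Erp29 (-0.53 ± 0.15, adjusted p = 0.0748) and Ero1b (1.17 ± 0.90, adjusted p = 0.801). Ero1b is the second Ero1 oxidase, known from the pancreas, and its 3 untransfected arrays with a value ranged widely, with -0.002, 0.17 and 3.76. P4hb and Pdia4, isomerases that Ero1a can oxidise, were at 0.10 ± 0.19 and -0.11 ± 0.22.

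Of 27 export and retrieval genes the smallest p-values belonged to Copa, a coat subunit of retrograde vesicles (-0.82 ± 0.32, adjusted p = 0.290), and Sar1a, the GTPase of export vesicles (0.37 ± 0.15, adjusted p = 0.298). The 6 measured genes of death signalling around Bcap31 ranged from -0.20 to 0.31, with Bcl2l1 at 0.29 ± 0.30 and Capn2 at -0.20 ± 0.24.

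None of the genes of the 3 remaining roles passed in untransfected cells in the fit of all features. At an unadjusted p under 0.05 in limma, 4 translocation genes were lower and 1 higher. Of 21 translocation genes, Sec61b, a subunit of the Sec61 channel, was at -1.67 ± 0.45 (limma, adjusted p = 0.0670) and Srprb, of the signal recognition particle receptor, at 0.65 ± 0.23 (adjusted p = 0.218). Of 14 degradation genes, Derl1 was at -0.52 ± 0.16 (adjusted p = 0.116) and H13 at -0.56 ± 0.30 (adjusted p = 0.540). Of 6 calcium genes, Calu was at -0.40 ± 0.24 (adjusted p = 0.627) and Stim2 at -0.999 ± 0.88 (adjusted p = 0.869).

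**Figure D3:**
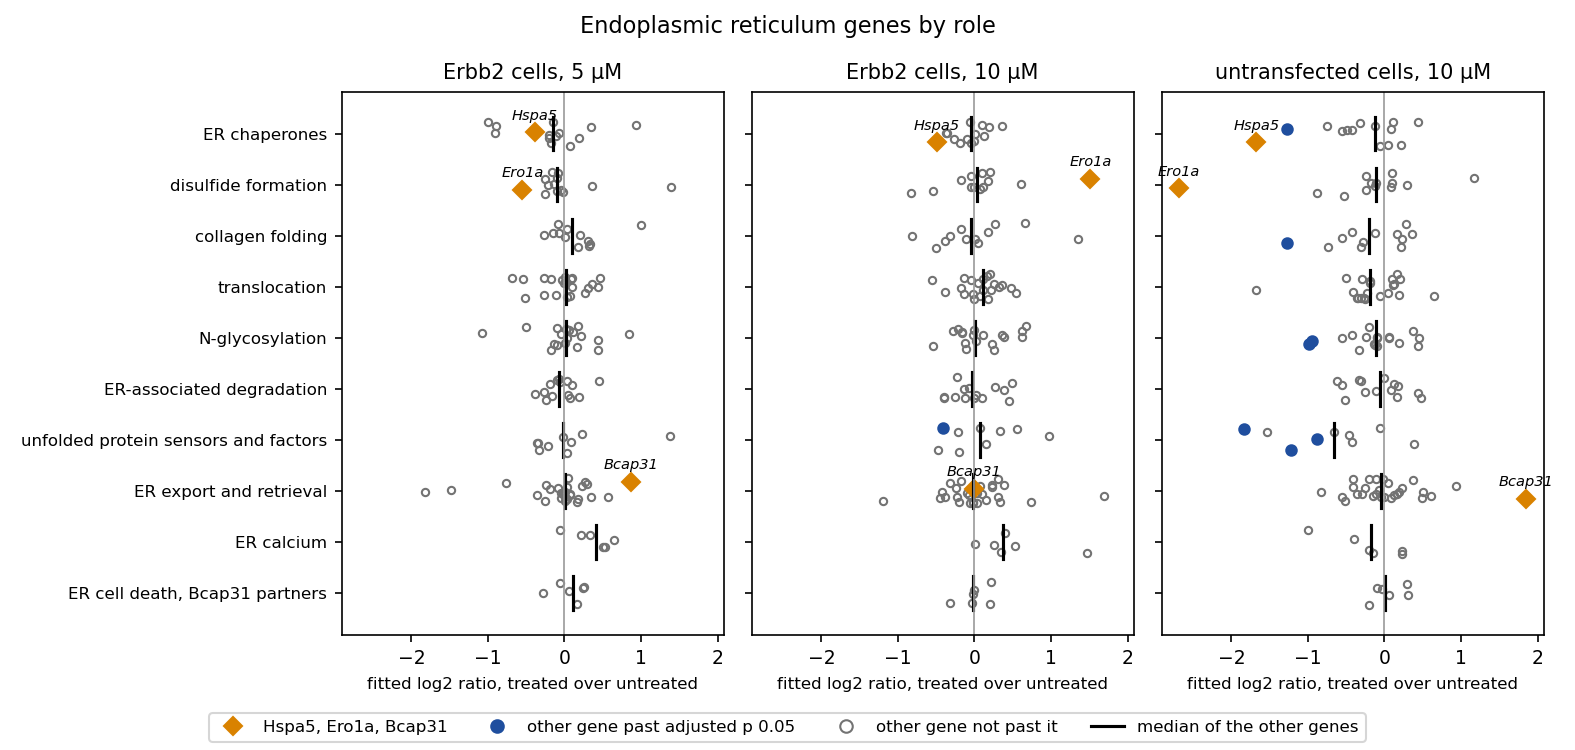
Fitted log2 ratio of treated over untreated cells (horizontal axis) for each measured gene of 10 endoplasmic reticulum lists, with a panel per group. Diamonds are Hspa5, Ero1a and Bcap31, filled circles other genes past an adjusted p of 0.05, open circles those not past it, and bars the median of the other genes. The 7 filled circles of untransfected cells all lie below 0, 3 of them (Atf4, Chac1 and Trib3) in the list of unfolded protein sensors and factors.

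The stress response element found before Hspa5 was also present in the window of 7 of 114 other list genes with a promoter sequence (6.14%). The matches, each of which contains a CCAAT box, are written in the orientation of the element with both conserved ends in capitals, to set them beside that of Hspa5. Creld2 and Alg12 are neighbours on chromosome 15 and share the same site, and Hsp90b1 has 2.
Hspa5, chr2:34772025-34772043 (+): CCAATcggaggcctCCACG
Hsp90b1, chr10:86705638-86705656 (-): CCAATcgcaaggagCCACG
Hsp90b1, chr10:86705533-86705551 (+): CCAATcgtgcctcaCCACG
Canx, chr11:50325800-50325818 (-): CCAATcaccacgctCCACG
Calr, chr8:84847075-84847093 (+): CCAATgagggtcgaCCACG
Dnajc3, chr14:118937827-118937845 (+): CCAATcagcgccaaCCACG
Creld2 and Alg12, chr15:88819520-88819538 (-): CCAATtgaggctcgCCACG
Ero1b, chr13:12565682-12565700 (-): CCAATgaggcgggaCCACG

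These 7 genes lay on both sides of 0. In Erbb2 cells their medians were -0.12 at 5 µM and -0.0004 at 10 µM. In untransfected cells Hsp90b1 passed, Canx, Calr and Creld2 were below 0 at -0.56, -0.42 and -0.75, and Dnajc3, Alg12 and Ero1b were above 0 at 0.08, 0.44 and 1.17, with a median of -0.42 over the 7.

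Ero1a is also a known target of hypoxia-inducible factors, so 10 other measured genes of the hypoxia response were set beside it, 9 of them such targets and the other Hif1a, a subunit of the factor itself. In Erbb2 cells at 10 µM, where Ero1a was above 0, 9 of the 10 lay below 0 with a median of -0.34, as did 6281 of all 12420 features. Of the 10, 0 passed in limma (2 lower and 0 higher at an unadjusted p under 0.05, Hif1a and P4ha1). In untransfected cells 2 of the 10 fell, Hmox1 at -0.81 ± 0.15 (limma, adjusted p = 0.00628) and Vegfa at -1.01 ± 0.23 (adjusted p = 0.0307), and the median was -0.38. There 2.13% of all features were lower.

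Markers of the line and of other cell types also passed in places. Of 10 fibroblast genes Sparc rose in Erbb2 cells at 10 µM (0.68 ± 0.11, limma, adjusted p = 0.00335), where 0.403% of all features were higher. In untransfected cells 4 of the 10 fell (Fn1, Lox, Col1a2 and Vim), where 2.13% of all features were lower, with values from -1.63 to 0.51 and a median of -0.41. Of 7 epithelial genes 6 lay above 0 in untransfected cells and Krt8 passed at 1.13 ± 0.27 (limma, adjusted p = 0.0359), with a median of 0.83. Of all 12420 features 6595 lay above 0 there and 0.596% were higher. Of 5 blood and immune genes Tyrobp fell at -0.68 ± 0.16 (adjusted p = 0.0376) and the median was 0.22. Ratios give no level, so presence of these cells cannot be read, and the part of these markers in the values above was not tested.

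The genes whose ratios followed each of the 3 most closely were ranked by Pearson's r over the arrays, as a description without a test, since all points share arrays and the groups differ in mean. Hspa5 was followed most closely by Atf4 (r = 0.924, rho = 0.841, 16 arrays), Esd (r = 0.914, rho = 0.826) and Cd5 (r = 0.911, rho = 0.818) among 7363 genes. Atf4 and Esd were lower in treated cells of all 3 groups, like Hspa5, whereas Cd5 was at 1.35 and 1.29 in Erbb2 cells at 5 and 10 µM and at 0.12 in untransfected cells. The genes most opposed to Hspa5 were Ttll10 (r = -0.888), Slc15a5 (r = -0.873) and Mdm2 (r = -0.873), the last at 1.70 ± 0.18 in untransfected cells.

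Ero1a was followed by Septin2 (r = 0.867, rho = 0.807, 15 arrays), Mob1a (r = 0.846, rho = 0.850) and Twistnb (r = 0.843, rho = 0.732, 14 arrays) among 6786 genes, and none came near its size: in untransfected cells they were at -0.75, -0.67 and -0.79. The most opposed were Ilf2 (r = -0.819), Uvrag (r = -0.772) and Mzt1 (r = -0.761). Bcap31 was followed by Anln (r = 0.861, rho = 0.721), Ampd1 (r = 0.835, rho = 0.771) and Cdyl (r = 0.827, rho = 0.506), of which Anln was at 1.45 ± 0.31 in untransfected cells. Mospd2 (r = -0.798), Zbtb7a (r = -0.792) and Mast2 (r = -0.787) were the most opposed to it.

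**Figure D4:**
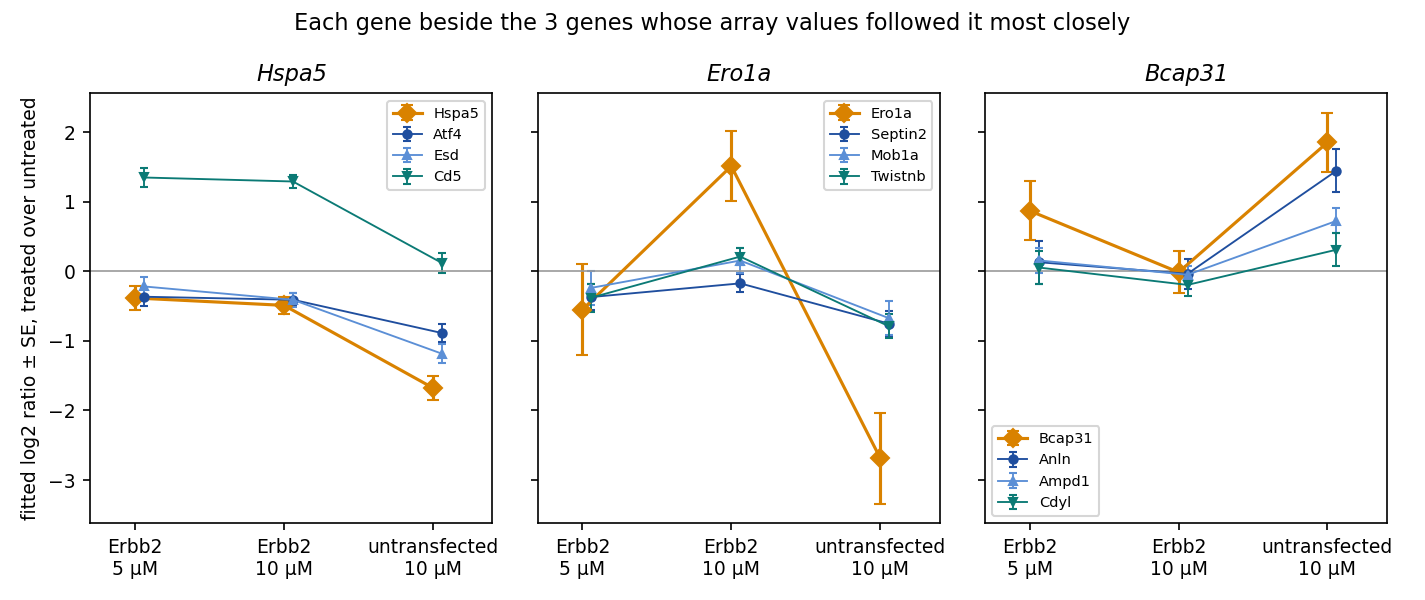
Fitted log2 ratio ± SE of treated over untreated cells (vertical axis) in each group for the 3 genes and, in each panel, the 3 genes whose array values followed it most closely. Atf4 and Esd track Hspa5 at a smaller size in untransfected cells, Cd5 has the same shape at a higher level, and the followers of Ero1a stay between -0.79 and 0.21 where Ero1a spans -2.68 to 1.51.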

How the data were processed

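RNA of treated and untreated NIH3T3 cells was compared on 16 cDNA arrays. The authors deposited a log ratio for each probe, taken here as log2. The sources used here name neither the base nor the image analysis, background correction or normalization. By inference, 1755 cells with 1 identical value per array above 15 were treated as missing, as were 38737 empty cells. Groups came from titles and source names, and the channel 1 dye set which arrays were turned. Array pairs of opposite label had a mean r from -0.0529 to 0.0039 by group and pairs of the same label from 0.0257 to 0.109.

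Probes needed values on at least 3 of 4 or 6 of 8 arrays of a group and 1 array per dye, which kept 14813. Probes of 1 symbol, from the platform annotation through Entrez Gene, were averaged by gene. The program limma 3.58.1 in R 4.3.3 (with data.table, version 1.17.8) fitted all arrays with 3 group terms and a dye term, with eBayes and two-sided p-values adjusted by Benjamini-Hochberg over all features. It was tested on simulated data. The members and gene lists were chosen with earlier results of these data known. Named genes are up to 4 passing genes per list and contrast, or else the 2 with the smallest p in untransfected cells, and the 3 most and least correlated genes of each member. Promoter matches, Ddit3, P4hb, Pdia4 and the hypoxia and marker genes were named after their values were seen. Promoters are RefSeq's for GRCm38.p6, found for all 3 members and 114 of 138 list genes. Replicate numbers shared between groups were not used to pair arrays in the main fit. The residual correlation of 12 same-number pairs was -0.107 to 0.133, and 3 were over 0.1. For 68 different-number pairs it was -0.152 to 0.133, and 13 were over 0.1. Such low values cannot show whether arrays of the same number were made together. Alternatives covered direction, dye term, arrays in the fit, missing values, scale, a replicate block and each array left out.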

Additional observations from a re-analysis of the deposited data

Results flagged for a closer look

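On array 3 of Erbb2 cells at 10 µM Bcap31 had a ratio of -2.04, while the nearest of the other 7 arrays was at 0. The gap took 0.762 of the group's range, above Dixon's 95% critical value. Chance alone marks about 1 group in 20 by this measure, and 9 groups of values were examined.

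Ero1a lay above 0 on all 7 Erbb2 arrays with a value at 10 µM and below 0 on all 4 untransfected arrays. The means differed by 4.17 on the log2 scale (Erbb2 minus untransfected), and the difference was not tested because these arrays chose the gene. With the untransfected arrays turned the other way their fitted value was 2.68, the same sign as in Erbb2 cells. With no sign turned it was 1.13, against -0.19 in Erbb2 cells at 10 µM.

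For Krtcap2 the responses of the 2 lines at 10 µM differed by 1.22 ± 0.25 (Erbb2 minus untransfected, limma, adjusted p = 0.0313). The call was lost in 10 of 16 fits that left out 1 array. The difference was -0.065 when no sign was turned and -0.75 when the untransfected arrays were turned the other way, and neither passed.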

How the results depend on the processing

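With no array turned for its dye, Hspa5 in Erbb2 cells at 10 µM was -0.14 (adjusted p = 0.887), Ero1a there -0.19 and Bcap31 at 5 µM -0.088; in untransfected cells Hspa5 was -0.027, Ero1a 1.13 and Bcap31 -1.25, and 0 other list genes passed in Erbb2 cells at 10 µM or in untransfected cells. In that reading limma passed 2 and 4 of 12420 features there. Turning the untransfected arrays the other way gave 1.68, 2.68 and -1.85. In Erbb2 cells at 10 µM the count of other list genes was 0 without the dye term, with each group fitted on its own arrays, with arrays scaled to one spread (median absolute value) and without arrays 3, 5 and 6. Fitting the untransfected arrays on their own also gave 0, and 0 of all 12420 features passed there, while 0.177% passed in Erbb2 cells at 10 µM fitted alone, where Hspa5 had an adjusted p of 0.438. Over the 7148 features with a value on every array, which give no value for Ero1a, Hspa5 in Erbb2 cells at 10 µM kept -0.49 and passed (adjusted p = 0.0226). Of the 97 other list genes there, 2 passed in Erbb2 cells at 10 µM, where 3.46% of those features passed. In untransfected cells 12 of the 97 passed, where 6.63% of those features passed. Among these were Erp29, Canx, Calr, Derl1 and Sec61b, which did not pass in the main fit. Scaling gave Bcap31 0.051 in Erbb2 cells at 10 µM and Hspa5 -1.73 in untransfected cells. Without arrays 3, 5 and 6 Hspa5 was -0.69 (adjusted p = 0.0441) and Bcap31 0.43 in Erbb2 cells at 10 µM. Leaving out each array in turn, Hspa5 at 10 µM ranged from -0.58 to -0.45, Bcap31 from -0.14 to 0.23, Ero1a at 5 µM from -1.10 to 0.045 (above 0 without array 2 of that group), and Hspa5 in untransfected cells from -1.72 to -1.63. The count ranged from 0 to 1 at 10 µM and from 2 to 9 in untransfected cells. Apart from fewer features or arrays in some fits, the cause was not tested. Over the 8 alternatives other than leaving out single arrays the adjusted p of Hspa5 in Erbb2 cells at 10 µM ran from 0.0226 to 0.887, and it passed in 2. A replicate block left Hspa5 at -0.49 (adjusted p = 0.0882) and the untransfected count at 7, and it changed no call. Signal intensities are not known here, which limits what low spots can show.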
